A study of Mus musculus with 16 samples.

Results

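The ABC transporter genes are described here in the kidneys of mice given cisplatin with or without a precursor of NAD. Members were chosen by name: every gene whose symbol begins with Abca, Abcb, Abcc, Abcd, Abce, Abcf or Abcg and a digit, which gave 49 of the 23935 gene symbols in the table. RNA was taken from whole kidney of wild-type (WT) mice in 16 libraries, 4 in each of 4 groups. These groups were PBS, cisplatin alone, cisplatin with NMN (nicotinamide mononucleotide) and cisplatin with NR (nicotinamide riboside). Cisplatin, a platinum-based cancer drug, forms DNA adducts and is toxic to tubule cells, and NMN and NR are building blocks of NAD that were given ahead of it. Kidneys of the groups given cisplatin were taken 3 days after the injection. Doses, sex and age are not stated in the labels. Nor do they state that the 4 libraries of a group come from different mice, so that each p-value reflects library-to-library spread, which may be technical. In the text NMN and NR name the groups that received cisplatin as well, and libraries are listed in the order of their replicate numbers.

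ABC proteins bind and split ATP through a pair of conserved nucleotide-binding domains, and most use that energy to move a substrate across a membrane. Classes A and G move mainly lipids and sterols, class B holds P-glycoprotein and the transporters of the inner mitochondrial membrane, class C holds the multidrug resistance-associated proteins and the sulphonylurea receptors, and class D works in peroxisomes and lysosomes. Classes E and F have no membrane-spanning part and act on ribosomes. In the kidney, ABC pumps of the proximal tubule pass drugs, glutathione conjugates and urate into the urine after uptake transporters have brought them into the cell.

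Values are TPM, read counts corrected for gene length and scaled to a common library total, so that levels of different genes in a library can be compared. Of the 49 members, 32 reached at least 1 TPM in at least 4 libraries and were tested: 9 of 16 in class A, 7 of 10 in class B, 7 of 9 in class C, 3 of 4 in class D, 1 of 1 in class E, 3 of 3 in class F and 2 of 6 in class G. A gene is said to rise or fall when limma, fitted to log2(TPM + 1) of all 12960 tested genes, gave an adjusted p (Benjamini-Hochberg) under 0.05. With PBS, Abcg2 was the most abundant member (203 ± 18.5 TPM, SD, n = 4), followed by Abcd3 (111 ± 11.1), Abca3 (91.9 ± 10.1) and Abcb8 (41.1 ± 2.32). The SDs of Abcd3 and Abca3 overlapped, although Abcd3 was above Abca3 within each PBS library. Those of Abcg2 and Abcd3 did not overlap. Abcg2, Abcd3 and Abca3 together made up 58.7% ± 2.65 of the summed TPM of all 49 members for PBS, 42.3% ± 0.961 for cisplatin, 57.4% ± 3.4 for NMN and 56.2% ± 3.84 for NR. That sum was 638 to 733 TPM per library for PBS, 523 to 627 for cisplatin, 622 to 729 for NMN and 616 to 731 for NR.

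The libraries carried the marks of kidney and of injury. Summed over 10 proximal tubule genes, the level was 49356 to 56776 TPM for PBS, 4542 to 7647 for cisplatin, 38908 to 46866 for NMN and 33130 to 39991 for NR, and all 10 genes fell with cisplatin. A list of 4 injury genes (Havcr1, Lcn2, Cdkn1a and Krt20) summed to 1.7 to 8.73, 4024 to 4451, 484 to 1266 and 995 to 1171 TPM in the same order. A list of 8 ribosomal protein genes summed to 4106 to 5181, 12602 to 13444, 5763 to 6842 and 6127 to 7494 TPM. All 8 rose with cisplatin, and RNA quality itself was not measured here. The summed TPM of 3 adrenal genes stayed at or below 3.56 in every library. A list of 4 liver genes summed to 767 to 1075 TPM for PBS, 71 to 90.7 for cisplatin, 506 to 922 for NMN and 521 to 776 for NR, and 3 of the 4 fell with cisplatin. The part of adipose or liver RNA in the members' values was not tested. Cisplatin library 1 stood apart from the other 3 cisplatin libraries in podocyte genes (47.7 against 6.63 to 8.47 summed TPM), endothelial genes (54.5 against 16.3 to 20.9) and pericyte and smooth muscle genes (133 against 58.6 to 67). Adipose genes summed to 43, 139, 445 and 292 TPM in NR libraries 1 to 4, against 50.2 to 172 for PBS, 232 to 461 for cisplatin and 42.6 to 140 for NMN, and 6 of 7 tested rose with cisplatin. Counts are also given without PBS 1, cisplatin 1 and cisplatin 3, which an earlier analysis of these data had set apart, and without NR 3 and NR 4.

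Cisplatin moved ABC genes in both directions. The P-glycoprotein gene Abcb1b and the multidrug resistance-associated genes Abcc1, Abcc3 and Abcc4 rose, as did 3 sterol and phospholipid exporters and 3 of 4 ribosome-bound members. Abcg2, the peroxisomal Abcd3 and 5 of 9 tested class A genes fell. Of the 32 tested members, 11 rose and 13 fell (24, or 75%, in either direction), against 40.7% and 18.6% of all 12960 genes that rose and fell (59.4% in either direction). Counts with cisplatin for single lists of members, partners or markers stand against these same shares. For 10 members all 4 cisplatin libraries lay above all 4 PBS libraries, and for 11 they lay below (35.3% and 15.6% of all genes). The median log2 change of the tested members was -0.23 and that of all genes 0.27, while the median size of the change, whatever its sign, was 0.65 and 0.58. The fit was repeated with median-of-ratios scaling, under which the median of all genes was 0.004. It gave 8 members higher and 16 lower, against 29.4% and 28.5% of all genes. Without PBS 1, cisplatin 1 and cisplatin 3 the counts were 9 and 9, against 32.1% and 17.2% of all genes. In bulk RNA, fewer cells of a type and less RNA per cell cannot be told apart. The plot of changes against PBS shows 30 of the tested members by role.

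**Figure D1:**
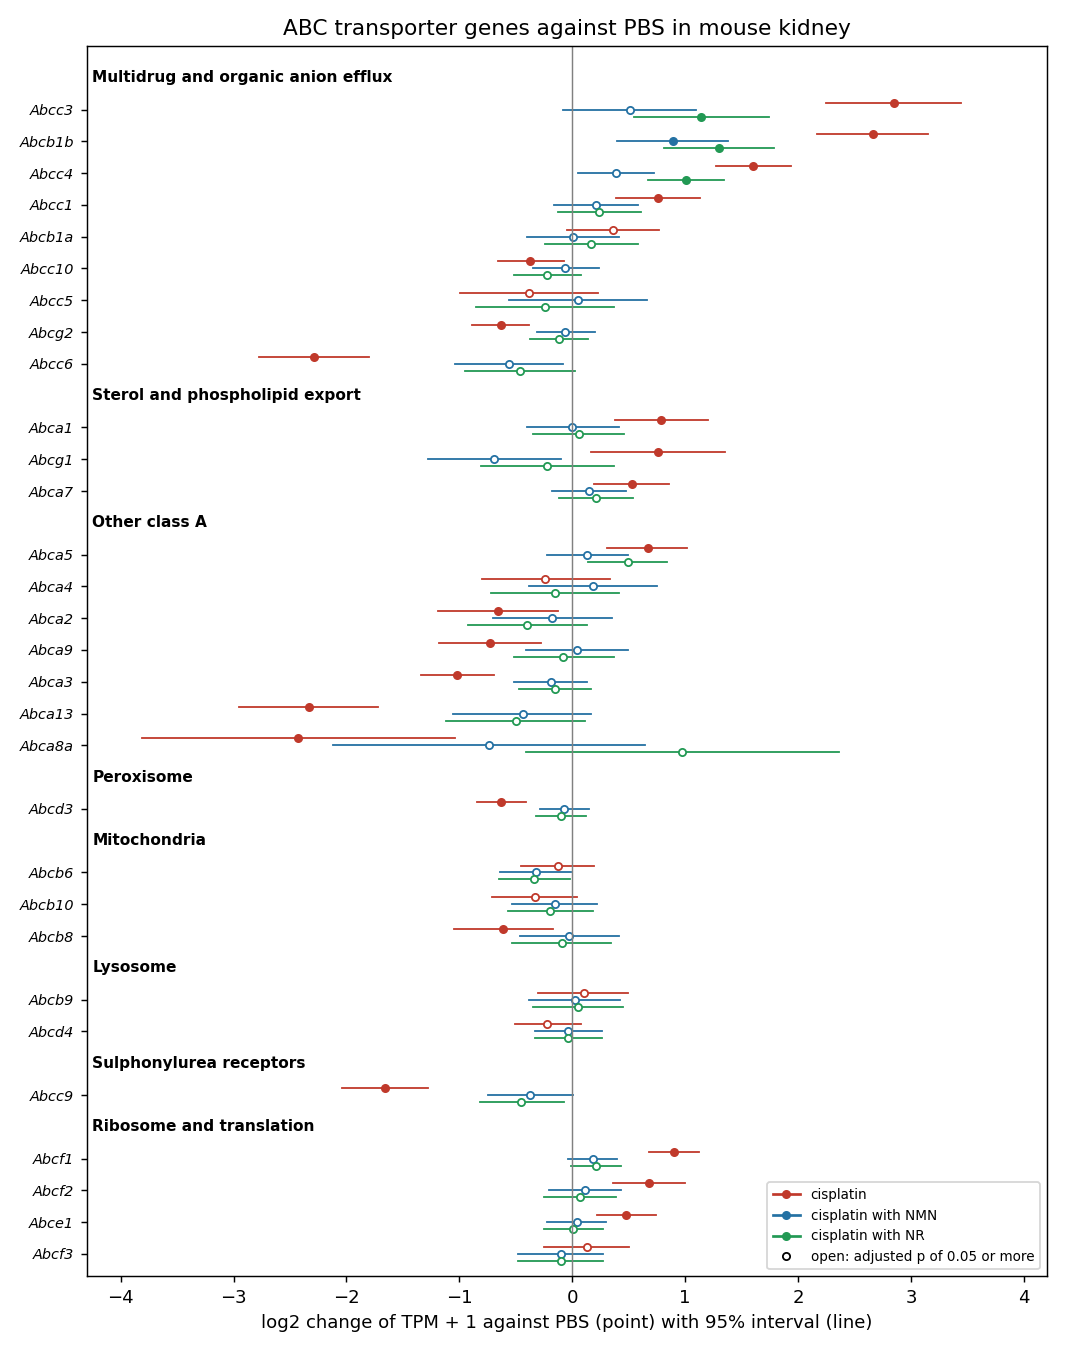
Log2 change of TPM + 1 against PBS (x axis) with 95% interval for 30 tested ABC genes (rows, grouped by role) with cisplatin alone (red), cisplatin with NMN (blue) and cisplatin with NR (green), all 3 against the same 4 PBS libraries. Filled points have an adjusted p under 0.05: 22 with cisplatin, 1 with NMN (Abcb1b) and 3 with NR (Abcb1b, Abcc3 and Abcc4).

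The drug efflux pumps held the largest rises. P-glycoprotein, which pumps many unrelated drugs out of cells, is encoded in the mouse by the neighbouring genes Abcb1a (chr5:8660077-8748575, GRCm38) and Abcb1b (chr5:8798147-8866315). Abcb1b measured 1.94, 2.28, 3.51 and 4.82 TPM for PBS, 24.6, 30.5, 20.2 and 22.9 for cisplatin, 5.3, 4.9, 10.8 and 5.78 for NMN and 10.5, 7.79, 7.57 and 9.88 for NR. Every cisplatin library lay above every library of the other groups, and its mean rose 7.82-fold over PBS (log2 change 2.66 ± 0.23 SE, adjusted p = 1.85e-08). Abcb1a measured 1.85, 1.5, 1.54 and 2.28 TPM for PBS, 3.44, 2.75, 1.71 and 2.57 for cisplatin, 1.14, 2.3, 2.37 and 1.53 for NMN and 2.38, 1.74, 1.99 and 2.43 for NR. Its cisplatin and PBS libraries overlapped and it was not called (log2 change 0.36 ± 0.19 SE, adjusted p = 0.119), although it was without cisplatin library 3 (adjusted p = 0.0399). Within a library, the log2 ratio of Abcb1b to Abcb1a was 0.52 ± 0.38 with PBS and 2.83 ± 0.24 with cisplatin (SD, n = 4), and these ranges did not overlap (0.04 to 0.83 and 2.53 to 3.07). The ratio was chosen with the values known and is given without a test. The copies share sequence: 22.5% of the 50-base windows of Abcb1a transcripts and 12.8% of those of Abcb1b also occur in another gene, for the most part in each other, and no source used here says how the authors counted reads that match both. Antisense genes overlap 10.1% of the exon bases of Abcb1a and 1.79% of those of Abcb1b, and the strand setting is likewise not given. The third gene of this block, Abcb4 (chr5:8893717-8959231), a phospholipid exporter of bile, reached 1 TPM in 3 libraries and was not tested.

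Abcc4 encodes MRP4, a pump for urate, cyclic nucleotides and conjugated anions on the luminal side of the proximal tubule (chr14:118482692-118706219). It measured 6.23, 6.51, 5.22 and 8.11 TPM for PBS, 28.2, 17, 22.1 and 20.7 for cisplatin, 8.91, 9.17, 8.74 and 8.18 for NMN and 16.9, 15, 11.6 and 12.9 for NR. All cisplatin libraries were above all others, at 3.37 times the PBS mean (log2 change 1.60 ± 0.16 SE, adjusted p = 1.07e-07). Abcc3, which encodes MRP3, an exporter of glucuronides toward the blood in liver and gut (chr11:94343295-94392997), measured 0.05, 1, 0.75 and 0.21 TPM for PBS, 5.07, 9.83, 10.6 and 14.7 for cisplatin, 0.84, 1.16, 1.4 and 0.91 for NMN and 1.98, 2.14, 3.88 and 1.31 for NR. It went from the lowest mean of the tested members with PBS (0.503 ± 0.447 TPM) to 10 ± 3.93 TPM with cisplatin (log2 change 2.85 ± 0.28 SE, adjusted p = 9.61e-08). Abcc1, which encodes MRP1, an exporter of glutathione conjugates (chr16:14361558-14475737), measured 1.73, 3.03, 3.05 and 2.57 TPM for PBS, 7.08, 4.71, 3.64 and 5.09 for cisplatin, 2.85, 3.14, 3.35 and 3.09 for NMN and 3.02, 3.36, 2.88 and 3.55 for NR. It rose to a mean of 5.13 ± 1.44 TPM, with no overlap with PBS (log2 change 0.76 ± 0.18 SE, adjusted p = 0.00123). Abcb1b, Abcc3, Abcc4 and Abcc1 were the 4 of 9 tested efflux genes that rose, while 40.7% of all genes rose. All 4 rose under median-of-ratios scaling and without each library in turn.

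The DNA just before the starts of Abcb1b and Abcc4 is shown because these efflux genes rose together with cisplatin and were above PBS with NR. The same held for Abcc3, which had no RefSeq window. The sequences are the 250 bases before the RefSeq start in GRCm38, written 5′ to 3′ on the strand of the gene. Capitals mark matches, on either strand, to a CCAAT box (CCAAT), a GC box (GGGCGG) or the core of an antioxidant response element (TGACNNNGC), the site of the oxidative stress factor NRF2; in Abcc4 the last GC box adjoins the antioxidant core, so that they form 1 run of capitals.
Abcb1b, chr5:8797897-8798146, + strand: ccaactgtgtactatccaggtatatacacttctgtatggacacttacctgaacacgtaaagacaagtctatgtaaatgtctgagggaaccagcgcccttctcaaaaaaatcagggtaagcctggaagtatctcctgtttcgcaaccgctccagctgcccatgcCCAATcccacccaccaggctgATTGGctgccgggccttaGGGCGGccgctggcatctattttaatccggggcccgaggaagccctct
Abcc4, chr14:118706220-118706469, - strand: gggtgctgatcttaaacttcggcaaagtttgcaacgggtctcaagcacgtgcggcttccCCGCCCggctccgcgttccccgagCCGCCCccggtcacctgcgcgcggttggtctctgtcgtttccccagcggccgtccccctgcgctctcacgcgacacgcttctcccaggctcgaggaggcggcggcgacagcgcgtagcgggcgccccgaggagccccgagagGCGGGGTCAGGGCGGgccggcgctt
Abcc4, second start, chr14:118676932-118677181, - strand: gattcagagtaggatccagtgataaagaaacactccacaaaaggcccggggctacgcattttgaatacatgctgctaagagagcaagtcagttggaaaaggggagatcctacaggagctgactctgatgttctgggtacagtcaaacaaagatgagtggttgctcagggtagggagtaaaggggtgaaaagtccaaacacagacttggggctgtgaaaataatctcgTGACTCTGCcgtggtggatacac
Abcb1b held 2 CCAAT boxes, 1 of them inverted, and 1 GC box. Abcc4 held an antioxidant core before each of its 2 RefSeq starts and 3 GC boxes before the first. Over all 32851 RefSeq windows of this length, 33.8% held a CCAAT box, 32.7% a GC box, 10.2% an antioxidant core and 6.75% an AP-1 site (TGANTCA). RefSeq windows matched 24 of the 32 tested members, of which 6 held a CCAAT box, 14 a GC box, 2 an antioxidant core (Abcc4 and Abcc10) and 0 an AP-1 site. A member was counted if any of its windows matched, while the shares above are of single windows. The second start of Abcc4 lies 29288 bases from the start of the gene in GENCODE. Matches of these letters are descriptions, not evidence of binding. Nfe2l2, the gene of NRF2, measured 32.5 ± 6.05 TPM with PBS and 93.3 ± 11.6 with cisplatin (adjusted p = 9.08e-08). Abcc10, the other tested member with an antioxidant core, was called lower with cisplatin, a call that depended on single libraries. The part of NRF2 in the rise of Abcc4 or the fall of Abcc10 was not tested.

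Other efflux genes fell or were not called. Abcg2 encodes the breast cancer resistance protein, a urate and drug exporter of the apical membrane of the proximal tubule (chr6:58584523-58695676). It measured 188, 186, 217 and 221 TPM for PBS, 147, 133, 111 and 132 for cisplatin, 182, 185, 183 and 232 for NMN and 199, 162, 171 and 221 for NR. All 4 cisplatin libraries lay below all 12 others (log2 change -0.63 ± 0.12 SE, adjusted p = 0.000212), and Abcg2 was still the most abundant member there. The log2 ratio of Abcc4 to Abcg2 within a library was -4.77 ± 0.24 for PBS, -2.53 ± 0.28 for cisplatin, -4.32 ± 0.23 for NMN and -3.65 ± 0.29 for NR, a description without a test. Abcc6 encodes MRP6, whose loss causes ectopic mineralization in pseudoxanthoma elasticum (chr7:45967555-46030302). It measured 8.92, 5.3, 9.1 and 5.96 TPM for PBS, 0.28, 1.04, 0.87 and 0.58 for cisplatin, 4.07, 4.77, 4.2 and 5.11 for NMN and 2.76, 7.15, 5.99 and 4.71 for NR. The cisplatin libraries held at most 1.04 TPM and did not overlap with any other group (log2 change -2.29 ± 0.23 SE, adjusted p = 1.18e-07). Abcg2 and Abcc6 fell beside the 10 of 10 proximal tubule genes that fell, whose summed level is given above. The part of the number of proximal tubule cells in these falls was not tested.

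Abcc10, the gene of the drug exporter MRP7, measured 7.01, 9.28, 7.91 and 6.47 TPM for PBS, 4.49, 6.22, 5.46 and 6.75 for cisplatin, 7.25, 7.51, 7.12 and 7.19 for NMN and 6.66, 6.9, 6.2 and 5.8 for NR. It fell (log2 change -0.37 ± 0.14 SE, adjusted p = 0.033), but its libraries overlapped by the highest cisplatin and lowest PBS values, and it was not called without PBS 2, PBS 3, cisplatin 1 or cisplatin 3 (adjusted p = 0.0619 to 0.12), nor without PBS 1, cisplatin 1 and cisplatin 3 together (log2 change -0.24, adjusted p = 0.248). Abcc5, which encodes MRP5, an exporter of cyclic nucleotides, measured 18.3, 18.5, 17.8 and 13.5 TPM for PBS, 21.6, 16.3, 7.71 and 9.52 for cisplatin, 20.6, 24.1, 13 and 14.4 for NMN and 12.2, 22.6, 15.8 and 9.2 for NR. Cisplatin libraries ranged from below to above those with PBS, and it was not called (log2 change -0.38 ± 0.29 SE, adjusted p = 0.272; 95% interval of the change -0.99 to 0.23). Abcc12 was at most 0.05 TPM in any library. Abcc2, also chosen as an efflux gene, was not among the gene symbols of the data, so its level is unknown here. Among 6 other transporters of organic anions and cations, 5 of uptake and the apical exporter Slc47a1 (-2.02 ± 0.09), all 6 fell with cisplatin, led by the uptake transporters Slc22a8 (177 ± 18.3 to 6.24 ± 0.676 TPM, log2 change -4.62 ± 0.12) and Slc22a6 (303 ± 22.1 to 15.9 ± 2.36 TPM). Of 6 genes of glutathione metabolism 3 rose and 2 fell. Gclc, of the rate-limiting step of glutathione synthesis, rose (1.64 ± 0.24), and Ggt1, which splits glutathione outside the cell, fell (-2.22 ± 0.13). Of 5 genes of the apical scaffold that anchors such transporters 1 rose (Ezr, 1.33 ± 0.12) and 3 fell, Pdzk1 by the smallest adjusted p (log2 change -1.86 ± 0.12 SE, adjusted p = 4.72e-10). Of 7 tested receptors and factors of drug response 2 rose (Nfe2l2 and Ahr), 2 fell, among them the tubule factor Hnf4a (-2.12 ± 0.15), and 3 were not called.

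**Figure D2:**
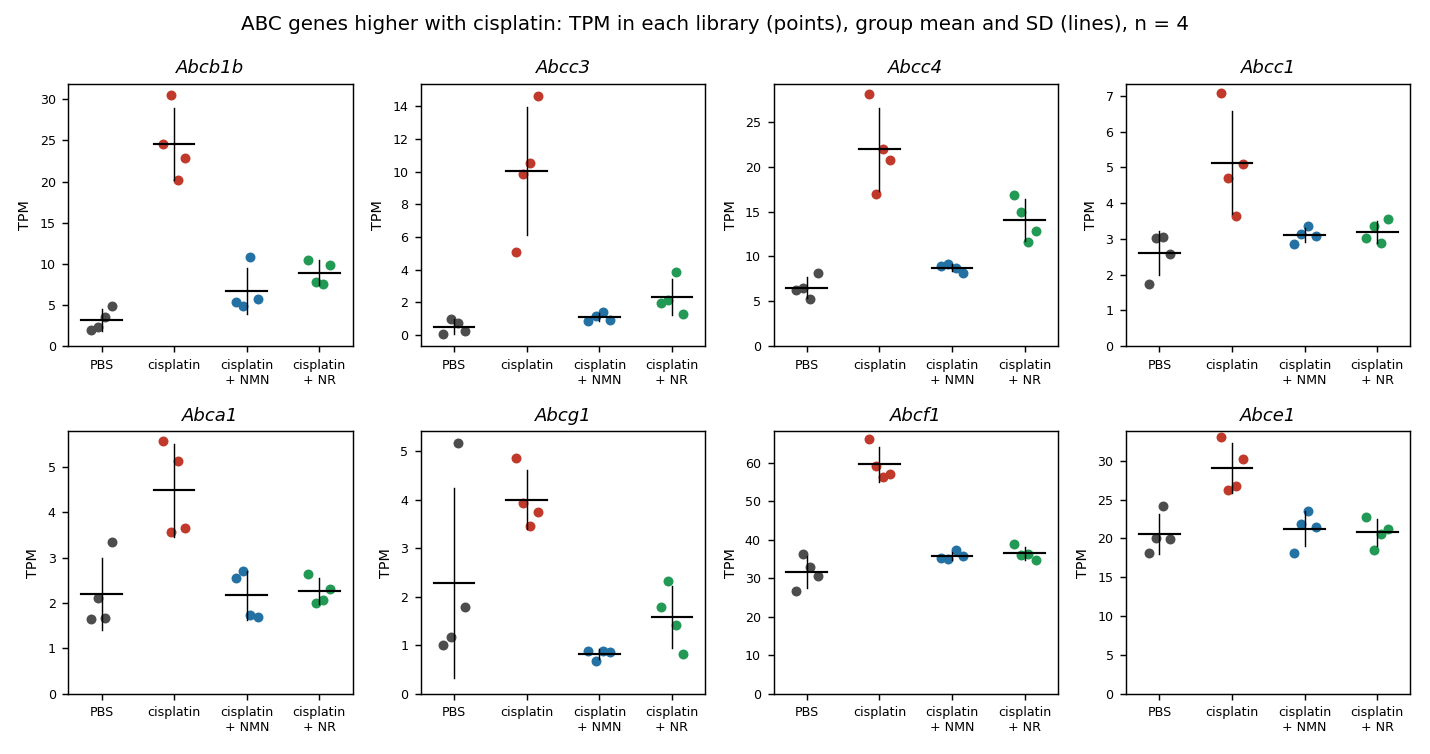
TPM (y axis, from 0, own scale per gene) of 8 ABC genes that rose with cisplatin in each of the 16 libraries (points) by group (x axis), with the group mean (horizontal line) and SD (vertical line), n = 4. For Abcb1b, Abcc3, Abcc4, Abcc1, Abca1, Abcf1 and Abce1 every cisplatin library lies above every library of the other groups, while for Abcg1 PBS library 3 reaches the level of the cisplatin libraries.

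Sterol exporters rose with cisplatin from low levels. Abca1, which loads cholesterol and phospholipid onto apolipoprotein A-I (chr4:53030787-53159895), measured 1.64, 2.11, 1.67 and 3.34 TPM for PBS, 5.57, 3.56, 5.13 and 3.65 for cisplatin, 2.54, 2.71, 1.73 and 1.68 for NMN and 2.64, 2.01, 2.07 and 2.3 for NR. The cisplatin libraries lay above all others (log2 change 0.79 ± 0.19 SE, adjusted p = 0.00188), and the call was lost without PBS 1, cisplatin 1 and cisplatin 3 together (adjusted p = 0.103). Abcg1, which passes cholesterol to HDL particles (chr17:31057675-31117988), measured 1, 1.17, 5.17 and 1.78 TPM for PBS, 4.87, 3.93, 3.47 and 3.75 for cisplatin, 0.89, 0.67, 0.88 and 0.86 for NMN and 1.78, 2.33, 1.41 and 0.82 for NR. It was called (log2 change 0.76 ± 0.28 SE, adjusted p = 0.0258) although PBS library 3 held more than any cisplatin library, and it was not called without PBS 1, PBS 2, PBS 4 or cisplatin 1 (adjusted p = 0.0538 to 0.0999) or under median-of-ratios scaling (0.0929). Abca7, a phospholipid transporter linked to phagocytosis, rose from 2.83 ± 0.354 to 4.55 ± 0.881 TPM (log2 change 0.53 ± 0.16 SE, adjusted p = 0.00832), and not under median-of-ratios scaling (adjusted p = 0.0708). Of 9 genes that supply or control these exporters, 2 rose (the LXR beta gene Nr1h2, 0.53 ± 0.14, and Mylip, 0.59 ± 0.17) and 2 fell (the LXR alpha gene Nr1h3, -0.83 ± 0.17, and its partner gene Rxra, -0.44 ± 0.13). Macrophages are a common source of Abca1 and Abcg1. The summed TPM of 7 macrophage and monocyte genes was 42.1 to 106 for PBS, 128 to 216 for cisplatin, 74 to 139 for NMN and 95.5 to 105 for NR. Of these genes Cd68 rose, Csf1r fell and 5 were not called with cisplatin, none was at 0 throughout a group, and their part in the sterol exporter results was not tested. Abcg4 was listed at 0 in 3 PBS libraries and reached 1.86 TPM in cisplatin library 1. Abcg5 and Abcg8, the intestinal and hepatic sterol exporters, were at most 0.18 and 0.15 TPM.

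Of 7 other tested class A genes 5 fell and 1 rose. Abca3, the lipid transporter of lamellar bodies in lung (chr17:24351950-24410201), was the third most abundant member and measured 90.2, 81.8, 89.9 and 106 TPM for PBS, 43, 47.8, 40.6 and 48 for cisplatin, 76.1, 73.1, 70.3 and 105 for NMN and 94.3, 70.2, 65.5 and 106 for NR. The cisplatin libraries held less than each other library (log2 change -1.02 ± 0.15 SE, adjusted p = 1.73e-05). An antisense gene overlaps 9.75% of its exon bases. Abca13, a very long gene (chr11:9191942-9684259), measured 3.69, 3.9, 4.15 and 9.16 TPM for PBS, 0.16, 0.16, 0.07 and 0.3 for cisplatin, 2.39, 3.53, 2.21 and 6.19 for NMN and 2.72, 2.32, 2.5 and 5.94 for NR. No cisplatin library reached 1 TPM (log2 change -2.33 ± 0.29 SE, adjusted p = 1.89e-06), and PBS 4, NMN 4 and NR 4 were each the highest of their group. The same 3 libraries held the highest sums of 5 thick ascending limb and distal genes (1775, 1498 and 1259 TPM, against 956 to 1224, 838 to 974 and 746 to 918 in the other libraries of those groups). With cisplatin, Abca13 was highest in library 4 and the 5-gene sum in library 2 (1121 TPM, against 993 in library 4). The part of these cells in the Abca13 values was not tested. Abca2, a transporter of late endosomes and lysosomes abundant in myelinating cells, measured 19.1, 18.1, 12.2 and 10.7 TPM for PBS, 7.66, 8.4, 5.88 and 15.9 for cisplatin, 9.88, 18.2, 10.8 and 13.7 for NMN and 12.1, 8.92, 11.1 and 11.6 for NR. It fell (log2 change -0.66 ± 0.25 SE, adjusted p = 0.0305) with overlapping libraries, and was not called without PBS 1, PBS 2 or any of cisplatin 1, 2 and 3 (adjusted p = 0.0607 to 0.111). Without PBS 1, cisplatin 1 and cisplatin 3 together its log2 change was -0.18 (adjusted p = 0.627).

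The chromosome 11 block of Abca8b, Abca8a, Abca9, Abca6 and Abca5, all on the - strand from 109932190 to 110337716, did not move as 1 unit. Abca8a measured 1.12, 9.98, 8.91 and 6.77 TPM for PBS, 0.43, 0.18, 0.15 and 0.11 for cisplatin, 0.66, 2.18, 18.1 and 1.27 for NMN and 5.76, 15.1, 11 and 19.4 for NR. It fell with cisplatin (log2 change -2.43 ± 0.65 SE, adjusted p = 0.00449), and its NMN libraries spread from 0.66 to 18.1 TPM. Abca9 fell from 0.795 ± 0.424 to 0.06 ± 0.0804 TPM (log2 change -0.73 ± 0.21 SE, adjusted p = 0.0066); it passed the filter on low values in exactly 4 libraries, none of them with cisplatin. Abca5, at the far end of the block, rose from 1.28 ± 0.266 to 2.61 ± 0.397 TPM (log2 change 0.67 ± 0.17 SE, adjusted p = 0.00226). Abca8b and Abca6 were at most 0.71 and 0.34 TPM and were not tested. Genes of fibroblasts also fell (4 of 4 tested, 5 listed), with summed TPM of 20.5 to 80 for PBS, 7.27 to 23.4 for cisplatin, 19.4 to 64.3 for NMN and 31.7 to 51.2 for NR. Those of endothelium fell in 7 of 7 cases (96.1 to 178, 16.3 to 54.5, 77.7 to 134 and 88 to 146). Their part in the falls of Abca8a and Abca9 was not tested. Abca4, the retinal transporter, was 1.46 ± 0.659 TPM with PBS and 1.09 ± 0.571 with cisplatin and was not called (adjusted p = 0.467).

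The peroxisomal Abcd3 fell. Abcd3, which imports branched and dicarboxylic acyl-CoA into peroxisomes (chr3:121758774-121815302), was the second most abundant member and measured 103, 100, 117 and 124 TPM for PBS, 73.5, 73.4, 64.1 and 74.9 for cisplatin, 104, 98, 105 and 113 for NMN and 113, 89.7, 99 and 113 for NR. All cisplatin libraries lay below all 12 others (log2 change -0.63 ± 0.10 SE, adjusted p = 4.78e-05). Abcd2, an importer of fatty acyl-CoA, was at most 0.39 TPM. Of 8 other genes of peroxisomes 6 fell and 0 rose, among them the beta-oxidation genes Acaa1b (-0.98 ± 0.09), Ehhadh (-1.28 ± 0.14) and Acaa1a (-0.77 ± 0.12).

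Among mitochondrial members 0 rose and Abcb8 fell. Abcb8, part of the potassium channel and iron export machinery of the inner membrane (chr5:24393663-24410054), measured 43.5, 42.7, 39.5 and 38.8 TPM for PBS, 24.1, 19.8, 28.1 and 37.3 for cisplatin, 45.9, 25.9, 53.1 and 41.9 for NMN and 36.7, 49.9, 40.2 and 29.7 for NR. It fell, with all cisplatin libraries below all PBS libraries (log2 change -0.61 ± 0.21 SE, adjusted p = 0.0174), and not without cisplatin library 2 (adjusted p = 0.0676). Nor was it called without PBS 1, cisplatin 1 and cisplatin 3 together (log2 change -0.55, adjusted p = 0.134).

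Abcb10, a transporter of the inner membrane needed for haem synthesis in red cells, measured 6.1, 5.97, 6.33 and 9.74 TPM for PBS, 6.22, 5.76, 4.57 and 4.73 for cisplatin, 5.64, 5.26, 6.46 and 7.27 for NMN and 4.3, 6.19, 5.94 and 7.52 for NR. Abcb6, a porphyrin transporter, measured 20.5, 22.2, 26.5 and 22.1 TPM for PBS, 19.1, 21.1, 17.7 and 25.6 for cisplatin, 15, 20.7, 16.3 and 20.5 for NMN and 19.8, 14.8, 16.2 and 20.9 for NR. Neither was called (adjusted p = 0.12 and 0.476), and both were lower under median-of-ratios scaling (log2 changes -0.60 and -0.43, adjusted p = 0.00621 and 0.0127). An antisense gene overlaps 10.3% of the exon bases of Abcb10. For Abcb6, 50% of the 50-base transcript windows also belong to an overlapping annotated gene on the same strand, so its counts are uncertain. Red blood cell genes fell in 6 of 6 cases, with summed TPM of 1882 to 3825 for PBS, 8.6 to 34.4 for cisplatin, 1366 to 2886 for NMN and 1276 to 2607 for NR. Their part in the Abcb10 and Abcb6 values was not tested. Of 8 partner genes of mitochondrial iron and haem, 2 rose (Slc25a37 and Glrx5) and 2 fell (Nfs1 and Ppox).

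In the lysosomal group neither gene was called. Abcd4, needed for release of vitamin B12 from lysosomes, measured 13.3, 19.5, 18.7 and 21.1 TPM for PBS, 14.5, 16.8, 16.1 and 13.8 for cisplatin, 15.3, 19.2, 19.4 and 16.2 for NMN and 18.4, 18.4, 15.8 and 17.1 for NR (log2 change -0.22 ± 0.14 SE, adjusted p = 0.193). It was called lower under median-of-ratios scaling (log2 change -0.51, adjusted p = 0.00134) and without PBS 1 (adjusted p = 0.0235). Abcb9, a lysosomal peptide transporter, was 3.24 ± 0.387 TPM with PBS and 3.6 ± 1.03 with cisplatin (adjusted p = 0.686).

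Abcc9 encodes SUR2, the sulphonylurea receptor subunit of potassium channels of vascular smooth muscle and pericytes (chr6:142587862-142702315). It measured 1.92, 2.35, 3.29 and 3.06 TPM for PBS, 0.19, 0.26, 0.11 and 0.02 for cisplatin, 1.33, 1.48, 2.26 and 2.26 for NMN and 1.4, 1.59, 1.73 and 1.92 for NR. No cisplatin library reached 0.3 TPM, and all lay below all 12 others (log2 change -1.66 ± 0.18 SE, adjusted p = 3.04e-07). Kcnj8, the pore subunit that pairs with SUR2, fell as well (3.94 ± 0.9 to 0.487 ± 0.224 TPM, log2 change -1.73 ± 0.20 SE, adjusted p = 8.31e-07). Of 8 pericyte and smooth muscle genes 6 fell and 1 rose (Cspg4), with summed TPM of 128 to 266 for PBS, 58.6 to 133 for cisplatin, 104 to 193 for NMN and 120 to 192 for NR. None of these markers was at 0 throughout a group, and their part in the fall of Abcc9 was not tested. Cisplatin library 1, with the highest sum of these markers among the cisplatin libraries, held 0.19 TPM of Abcc9, and cisplatin library 2 held 0.26. Abcc8, the receptor of pancreatic islets, reached 1 TPM in 1 library.

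**Figure D3:**
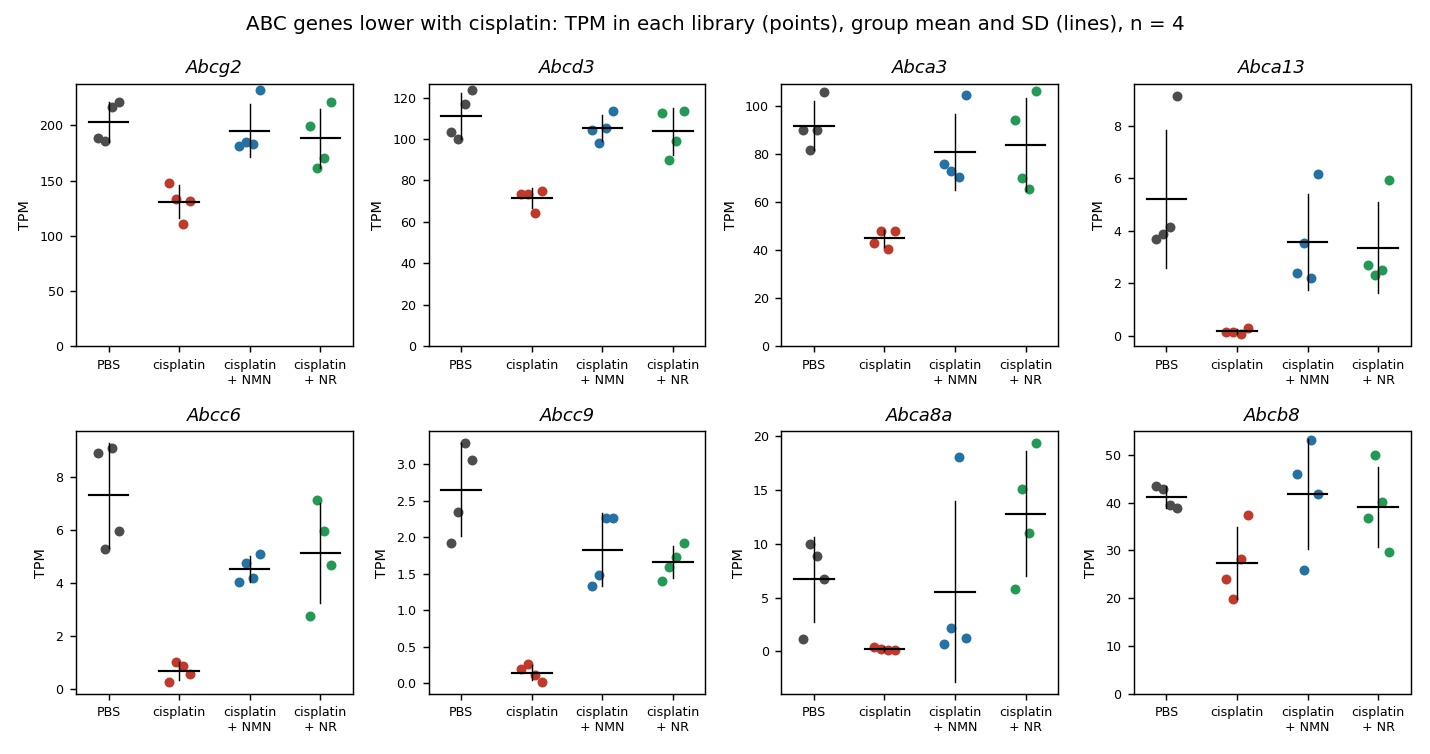
TPM (y axis, own scale per gene) of 8 ABC genes that fell with cisplatin in each of the 16 libraries (points) by group (x axis), with the group mean (horizontal line) and SD (vertical line), n = 4. Abcg2, Abcd3, Abca3, Abca13, Abcc6, Abcc9 and Abca8a had every cisplatin library below every other library, and Abca8a spread widest within the NMN group.

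Of the 4 members that act on ribosomes 3 rose and 0 fell. Abcf1, which binds initiation factor eIF2 (chr17:35956819-35969761), measured 26.8, 36.4, 33 and 30.5 TPM for PBS, 66.2, 59.1, 56.3 and 57 for cisplatin, 35.2, 34.9, 37.4 and 35.9 for NMN and 38.8, 36, 36.3 and 34.9 for NR. All cisplatin libraries lay above all others (log2 change 0.90 ± 0.10 SE, adjusted p = 7.61e-07). Abcf2, a ribosome-associated ATPase (chr5:24565345-24577467), measured 15.1, 21.4, 25.4 and 18.6 TPM for PBS, 40.4, 29.7, 29.1 and 30.9 for cisplatin, 19.2, 21.2, 23.5 and 21.8 for NMN and 24.3, 17.7, 20.4 and 21.5 for NR. It rose with the highest value in cisplatin library 1 (log2 change 0.68 ± 0.15 SE, adjusted p = 0.000929). Abce1, the factor that splits ribosomes after termination (chr8:79683462-79711740), measured 18.1, 20.1, 24.2 and 20 TPM for PBS, 33, 26.3, 26.8 and 30.3 for cisplatin, 18.1, 21.9, 23.5 and 21.5 for NMN and 22.7, 18.5, 20.6 and 21.2 for NR. It rose in TPM (log2 change 0.48 ± 0.12 SE, adjusted p = 0.00278) but was not called under median-of-ratios scaling (log2 change 0.18, adjusted p = 0.101).

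Abcf3, the fourth of these genes (chr16:20548577-20561379), measured 16, 19.2, 16.2 and 14.9 TPM for PBS, 16.8, 21.8, 21 and 13.8 for cisplatin, 13.9, 17.2, 17.5 and 13 for NMN and 13.5, 12.6, 22.4 and 14.4 for NR. It was not called (log2 change 0.13 ± 0.18 SE, adjusted p = 0.564; 95% interval -0.25 to 0.50). The log2 ratio of Abcf1 to Abcf3 within a library was 0.89 ± 0.13 with PBS and 1.66 ± 0.32 with cisplatin (ranges 0.71 to 0.99 and 1.38 to 1.97, no test). All 7 partner genes of ribosome recycling and of eIF2 rose, with Etf1, the release factor gene, first (25.3 ± 3.07 to 49.9 ± 3.67 TPM, log2 change 0.96 ± 0.11 SE, adjusted p = 9.61e-07). The 8 listed ribosomal protein genes also rose in the same libraries (8 of 8), and their part in these results was not tested.

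The 3 listed ABC genes whose symbols lie outside the naming rule rose. Tap1 and Tap2 form the peptide transporter that loads MHC class I, and Cftr is a chloride channel. Tap1 went from 4.64 ± 2.4 to 33.2 ± 5.69 TPM (log2 change 2.68 ± 0.25 SE, adjusted p = 6.10e-08), Tap2 from 8.13 ± 2.05 to 21.6 ± 4.56 TPM and Cftr from 0.652 ± 0.156 to 4.09 ± 0.729 TPM (log2 change 1.62 ± 0.20 SE, adjusted p = 1.67e-06).

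With NMN before cisplatin, 4 drug pumps, the sterol exporters Abca1 and Abcg1 and 3 ribosome-bound members were lower than with cisplatin alone, while Abcg2, the peroxisomal Abcd3 and 4 class A genes were higher. Of 32 tested members 10 were higher and 10 lower (20 in either direction), against 15.1% and 34% of all genes (49.1% in either direction). Libraries of the groups did not overlap for 10 members above and 10 below, against 13.4% and 30.9% of all genes. The median log2 change was 0.18 for members and -0.23 for all genes. After median-of-ratios scaling 14 were higher and 8 lower, against 22.3% and 23.5% of all genes. Without PBS 1, cisplatin 1 and cisplatin 3 the counts were 7 and 8, against 12.9% and 28.9%. The pumps Abcc3 (log2 change -2.34 ± 0.28 SE, adjusted p = 2.63e-06), Abcb1b (log2 change -1.77 ± 0.23 SE, adjusted p = 6.49e-06), Abcc4 (log2 change -1.22 ± 0.16 SE, adjusted p = 6.75e-06) and Abcc1 (log2 change -0.55 ± 0.18 SE, adjusted p = 0.0152) were lower, Abcc1 not so without cisplatin library 1 (adjusted p = 0.0626). Abcg1 (log2 change -1.45 ± 0.28 SE, adjusted p = 0.00033) and Abca1 (log2 change -0.79 ± 0.19 SE, adjusted p = 0.00263) were lower as well. In the Abcg1 libraries with NMN all values were under 1 TPM. Abcf1, Abcf2, Abce1 and Abca5 completed the 10, with log2 changes of -0.72, -0.57, -0.44 and -0.53. The calls of Abce1 and Abca5 were lost under median-of-ratios scaling (adjusted p = 0.0755 and 0.0624).

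Higher with NMN than with cisplatin alone were Abca13 (log2 change 1.89 ± 0.29 SE, adjusted p = 3.78e-05), Abcc6 (log2 change 1.73 ± 0.23 SE, adjusted p = 7.60e-06), Abcc9 (log2 change 1.29 ± 0.18 SE, adjusted p = 1.21e-05), Abca3 (log2 change 0.82 ± 0.15 SE, adjusted p = 0.000246), Abcg2 (log2 change 0.57 ± 0.12 SE, adjusted p = 0.000765) and Abcd3 (log2 change 0.55 ± 0.10 SE, adjusted p = 0.000264). In these 6 genes no library of either group overlapped with the other. Abca9, Abca8a and Abcb8 were higher as well, with log2 changes of 0.78, 1.68 and 0.58. The calls of Abca8a and Abcb8 depended on single libraries. Abca8a was not called without any 1 of the 4 cisplatin libraries, NMN 2 or NMN 3 (adjusted p = 0.0598 to 0.121), and its log2 change was 0.92 without NMN 3, its highest NMN library. Abcb8 was not called without cisplatin 1 or 2 or NMN 1, 3 or 4 (adjusted p = 0.0562 to 0.0954). Beside these members, 10 of 10 proximal tubule genes were higher. So were 4 of the 5 uptake transporters, of which Slc22a8 is also on the proximal tubule list, and the exporter Slc47a1 (1.70 ± 0.09). Of 8 peroxisome genes 4 were higher, and of 7 genes of ribosome recycling 5 were lower, against 15.1% and 34% of all genes.

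With NR before cisplatin, drug pumps and sterol exporters were lower and Abcg2 and Abcd3 were higher than with cisplatin alone. Of 32 tested members 8 were higher and 9 lower (17 in either direction), against 14.4% and 32.2% of all genes (46.6% in either direction). Libraries did not overlap for 8 members above and 9 below, against 12.7% and 29.1% of all genes. The median log2 change was 0.11 for members and -0.20 for all genes. After median-of-ratios scaling the counts were 12 and 8, against 21.2% and 22.4% of all genes, and without NR 3 and NR 4 they were 7 and 6, against 10.8% and 26.1%. The NMN and NR comparisons share the 4 cisplatin libraries, so that their likeness is not independent. Lower were Abcc3 (log2 change -1.70 ± 0.28 SE, adjusted p = 9.00e-05), Abcb1b (log2 change -1.36 ± 0.23 SE, adjusted p = 0.000127), Abcg1 (log2 change -0.98 ± 0.28 SE, adjusted p = 0.008), Abca1 (log2 change -0.74 ± 0.19 SE, adjusted p = 0.00476), Abcc4 (log2 change -0.60 ± 0.16 SE, adjusted p = 0.00534), Abcc1 (log2 change -0.52 ± 0.18 SE, adjusted p = 0.0225), Abcf1, Abcf2 and Abce1. The highest NR library of Abcc4 (16.9 TPM) came close to the lowest cisplatin library (17 TPM), and Abcc4 was not called under median-of-ratios scaling (log2 change -0.39, adjusted p = 0.0626), without PBS 1, cisplatin 1 and cisplatin 3 (0.095) or without NR 3 and NR 4 (0.102). Abcc1 was not called without cisplatin 1, NR 1 or NR 3 (adjusted p = 0.0502 to 0.0879), and Abcg1 was not called without NR 3 and NR 4 (0.113). Abca1 lost its call without PBS 1, cisplatin 1 and cisplatin 3, with NMN as with NR (adjusted p = 0.057 and 0.0859).

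Higher with NR were Abca8a (log2 change 3.40 ± 0.65 SE, adjusted p = 0.000518), Abca13 (log2 change 1.83 ± 0.29 SE, adjusted p = 6.22e-05), Abcc6 (log2 change 1.83 ± 0.23 SE, adjusted p = 5.39e-06), Abcc9 (log2 change 1.22 ± 0.18 SE, adjusted p = 2.91e-05), Abca3 (log2 change 0.87 ± 0.15 SE, adjusted p = 0.000178), Abca9 (log2 change 0.66 ± 0.21 SE, adjusted p = 0.0175), Abcd3 (log2 change 0.53 ± 0.10 SE, adjusted p = 0.000462) and Abcg2 (log2 change 0.52 ± 0.12 SE, adjusted p = 0.00201). Abca9 was not called without NR 2 (adjusted p = 0.0589). Abcb8 (0.52 ± 0.21) was not called with NR (adjusted p = 0.05), and was without cisplatin 4 or NR 4 (adjusted p = 0.0143 to 0.0262). It was also called under median-of-ratios scaling (log2 change 0.72, adjusted p = 0.0187) and with a minimum of 5 TPM (adjusted p = 0.0428).

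Against PBS, few members were called in the groups given a precursor. With NMN 1 of 32 was higher and 0 lower, against 5.89% and 0.116% of all genes, for a total of 6% in either direction. With NR 3 were higher and 0 lower, against 8.79% and 1.21% of all genes, or 10% in either direction. Libraries did not overlap with PBS for 2 members above and 2 below with NMN (8.77% and 1.46% of all genes), and for 5 above and 0 below with NR (11.8% and 2.99%). Median log2 changes of members and of all genes were -0.03 and 0.04 with NMN, and -0.09 and 0.06 with NR. At an unadjusted p under 0.05, limma gave 2 higher and 3 lower with NMN (15.6% of members, 16.4% of all genes), and 4 higher and 2 lower with NR (18.8% and 22.1%). Abcb1b was higher than PBS in both groups (log2 change 0.89 ± 0.23 SE, adjusted p = 0.0265 with NMN, log2 change 1.30 ± 0.23 SE, adjusted p = 0.000855 with NR). With NMN its call was lost without PBS 1, PBS 2 or NMN 3 (adjusted p = 0.0774 to 0.123) and without PBS 1, cisplatin 1 and cisplatin 3 (0.133). Abcc4 was 14.1 ± 2.33 TPM with NR, above PBS in every library (log2 change 1.01 ± 0.16 SE, adjusted p = 0.000276), and 8.75 ± 0.419 TPM with NMN (log2 change 0.39 ± 0.16 SE, adjusted p = 0.214). Abcc3 was higher with NR (log2 change 1.14 ± 0.28 SE, adjusted p = 0.0126), and not without PBS 1 or NR 3 (adjusted p = 0.0547 to 0.055) or without NR 3 and NR 4 (0.0726). With NMN it was not called (log2 change 0.51 ± 0.28 SE, adjusted p = 0.402). Under median-of-ratios scaling Abcb6 (log2 change -0.44, adjusted p = 0.0489) and Abcc9 (-0.52, adjusted p = 0.0358) were lower with NR than with PBS. For Abcg2 and Abcd3 the 95% intervals of the log2 change against PBS were -0.31 to 0.20 and -0.29 to 0.15 with NMN, and -0.37 to 0.14 and -0.32 to 0.12 with NR.

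**Figure D4:**
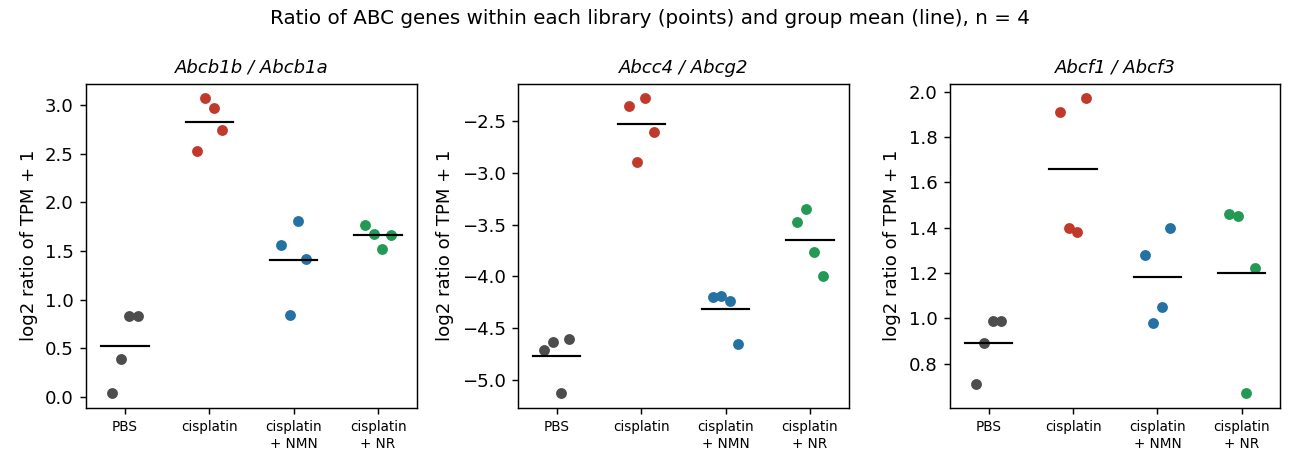
Log2 ratio of TPM + 1 (y axis) of Abcb1b to Abcb1a, Abcc4 to Abcg2 and Abcf1 to Abcf3 within each of the 16 libraries (points) by group (x axis), with the group mean (line), n = 4. The 3 ratios had their highest group means with cisplatin (2.83, -2.53 and 1.66), and for Abcc4 to Abcg2 the NMN and NR libraries did not overlap.

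NMN and NR were compared directly as related compounds. NR is a nucleoside of nicotinamide and ribose, and NMN is the same molecule with a phosphate group on the ribose. No label gives their doses, so that this comparison may also be one of unequal doses, and it was made for 1 pair. With limma 0 of 32 members were called, against 0% of all 12960 genes. At an unadjusted p under 0.05 there were 0 members higher and 4 lower with NMN than with NR (12.5% of members, 2.85% of all genes): Abcc4, Abca8a, Abcc3 and Abca5. Abcc4 was 8.91, 9.17, 8.74 and 8.18 TPM with NMN and 16.9, 15, 11.6 and 12.9 with NR. These libraries did not overlap. Non-overlapping libraries were found for 1 member above (Abcc10) and 2 below (Abcc4 and Abca5), against 0.64% and 0.995% of all genes. For Abcc4 the log2 difference, NMN minus NR, was -0.62 ± 0.16 (SE; 95% interval -0.96 to -0.28, unadjusted p = 0.00117, adjusted p = 1). For Abcc3 the interval was -1.23 to -0.04, for Abca8a -3.10 to -0.33 and for Abca5 -0.71 to -0.00. For Abcb1b it was -0.91 to 0.07, for Abcg2 -0.20 to 0.31 and for Abcd3 -0.19 to 0.24, so that differences within these bounds were not resolved. Adjusted p was 1 for every member in this comparison.

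The 17 members that were not tested were at most 2.23 TPM in any library. Abca12, Abca15, Abca16 and Abcb5 were listed at 0 in all 16 libraries. The highest value was that of Abcb4 in PBS library 3, beside 0.01, 0.03, 2.23 and 0.05 TPM in the 4 PBS libraries and 1.35, 0.58, 0.7 and 1.08 with cisplatin. Abcb11, the bile salt export pump, was listed at 0 in all 4 PBS libraries and was at most 0.61 TPM elsewhere. Abca14 and Abca17 were at most 0.67 and 0.8 TPM and were listed at 0 in all 4 cisplatin libraries, and Abcg3 was at most 0.33 TPM. The depth behind these values is unknown, so that no limit can be set on what a listed 0 allows.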

How the data were processed

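The TPM values (length-corrected and scaled to a common library total, 2 decimals) were made by the authors and deposited as 1 table of 23982 entries in 16 libraries. The submitters' processing notes name DESeq2 1.10.1, HTSeq 0.6.1, STAR 2.4.1d and Trim Galore, and the builds GRCm38 and mm10, without saying what each did. Neither annotation nor strandedness is stated there. TPM keeps no read depth, so no counting interval can be given, and a fall of abundant transcripts raises the others. Listed TPM summed to 860428 to 903678 per library. Groups and replicate numbers came from sample titles. Entries that share a symbol were summed (23935 symbols).

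The 12960 genes that reached 1 TPM in 4 or more libraries were fitted as log2(TPM + 1), which understates changes of low genes, with limma 3.58.1 (R 4.3.3, statmod 1.5.0; 4 group means, trend and robust moderation), with Benjamini-Hochberg adjustment over all of them. The procedure was run on simulated data in which a small part of the genes changed, in equal number up and down. That run does not check the fit under a broad and mostly upward change, as found with cisplatin. The members, lists, pairs of genes and the rule for giving values library by library (tested members with a highest group mean of at least 5 TPM, or in a listed set of transporters) were chosen with earlier results of these data known. Positions and transcripts came from GENCODE vM21 (GRCm38), and promoters from RefSeq (GRCm38.p6), which matched 37 of 49 members. Alternatives were median-of-ratios scaling, a pseudocount of 0.1, a minimum of 5 TPM or none, plain moderation, only the groups compared, a replicate block and each library left out. Fits without PBS 1, cisplatin 1 and cisplatin 3, and without NR 3 and NR 4, were added after seeing the data. Results for some genes are not reported here. Same-numbered libraries were not treated as pairs. Figures used matplotlib 3.10.9 (Python 3.11.15).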

Additional observations from a re-analysis of the deposited data

Results flagged for a closer look

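In 11 of 108 sets of 4 libraries, each set being 1 of the 27 members given library by library in 1 group, a single library lay apart: its gap to the nearest other was more than 0.829 of the range. For independent, normally distributed values chance gives about 1 in 20 such sets. The sets come from the same 16 libraries and TPM need not be normally distributed, so 11 of 108 cannot be weighed against that rate. With PBS, library 4 was high for Abca13 (9.16 TPM, the others 3.69 to 4.15) and Abcb10 (9.74, the others 5.97 to 6.33) and low for Abcc5 (13.5, the others 17.8 to 18.5). With cisplatin, library 3 was low for Abcd3 (64.1, the others 73.4 to 74.9) and library 1 was high for Abcf2 (40.4, the others 29.1 to 30.9). With NMN, library 4 was high for Abca3 (105, the others 70.3 to 76.1) and Abcg2 (232, the others 182 to 185). NMN library 3 was high for Abca8a (18.1, the others 0.66 to 2.18) and Abcb1b (10.8, the others 4.9 to 5.78), and NMN library 2 was low for Abcg1 (0.67, the others 0.86 to 0.89). With NR, library 4 was high for Abca13 (5.94, the others 2.32 to 2.72).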

How the results depend on the processing

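No called log2 change of a member changed sign under the alternatives run. A minimum of 5 TPM, which leaves fewer members to test, gave 6 members higher with cisplatin against PBS and 6 lower with NMN against cisplatin. Of the 9587 genes tested at that minimum, 46.1% were higher and 40% lower in these comparisons. The number of members tested at that minimum is not given here, so the member counts cannot be set against these percentages. Abcc3 passed that minimum only through the cisplatin group, in which it was high (5.07, 9.83, 10.6 and 14.7 TPM). Its highest value in any other group was 3.88 TPM, in NR library 3. The 1 member higher with NMN against PBS, Abcb1b, was not called (0 members) with no minimum, with only the groups compared in the fit or without PBS 1, cisplatin 1 and cisplatin 3. Median-of-ratios scaling gave 2 members lower with NR against PBS, where 3.69% of all genes were lower. The cause of the NMN and NR changes was not tested. Leaving out 1 library at a time gave 10 to 12 members higher and 11 to 13 lower with cisplatin against PBS, 8 to 10 and 9 to 12 with NMN against cisplatin, and 8 to 9 and 8 to 10 with NR against cisplatin. It gave 0 to 1 and 0 with NMN against PBS, 2 to 3 and 0 with NR against PBS, and 0 and 0 between NMN and NR. After the group mean of each gene was subtracted, the deviations of same-numbered libraries of 2 groups correlated between -0.13 and 0.287. The correlations among PBS, NMN and NR were 0.203 to 0.287 for replicates 2 and 4. Same-numbered libraries were not taken as pairs. With a replicate block the counts were 11 and 13, 9 and 10, 8 and 9, 1 and 0, 3 and 0, and 0 and 0 in the same order, and 1 call was lost, with NMN against cisplatin. A pseudocount of 0.1 moved the log2 ratio of Abcb1b to Abcb1a to 3.20 with cisplatin and 2.01 with NR. TPM keeps no depth, so that the precision of low values cannot be given.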
